A study of Homo sapiens with 42 samples.

Results

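SOX transcription factors were followed in ATAC-seq data, in which a transposase marks open chromatin, from the EGFR-mutant lung adenocarcinoma lines PC9, H1975, HCC827 and HCC2935. The 10 genes were SOX2, SOX4, SOX5, SOX6, SOX7, SOX9, SOX11, SOX13, SOX17 and SOX21, and their members here were all regions that the deposited annotated tables assign to 1 of these symbols. These were 106 of 242490 annotated regions: PC9 held 37 of 69565, H1975 24 of 76952, HCC827 11 of 30709 and HCC2935 34 of 65264. All 106 were tested, since none was lost to the filter on low counts. SOX21 had no region in any line and SOX5 had regions in HCC2935 alone, while SOX2, SOX4, SOX6 and SOX13 had regions in all 4 lines. The most regions belonged to SOX13 (31), followed by SOX4 (24), SOX6 (14), SOX9 (12), SOX5 (7), SOX2, SOX7 and SOX17 (5 each) and SOX11 (3). By the deposited annotation 47 lay in promoters, 40 in introns, 13 in distal intergenic sequence and 6 in a 3' UTR.

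The 42 libraries formed 14 groups of 3, which the labels call biological triplicates. Control cells grew without drug for 21 days and then in DMSO for 3 days. Drug tolerant persister (DTP) cells were the cells left after 24 days in 500 nM osimertinib, an EGFR inhibitor. The combination (combo) group received 500 nM osimertinib for 21 days, followed by 3 days of the bromodomain inhibitor AZD5153 at 150 nM, and whether osimertinib stayed on in those last days is left unsaid by the labels. An AZD5153 group, drug free for 21 days and then in 150 nM AZD5153 for 3 days, was made in PC9 and H1975 only. All groups of a line are the same cell line, without an introduced allele.

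SOX proteins bind DNA through an HMG box, which sits in the minor groove and bends the helix, and they usually act together with a partner factor. They are grouped by sequence: SOX2 belongs to SOXB, SOX4 and SOX11 to SOXC, SOX5, SOX6 and SOX13 to SOXD, SOX9 to SOXE, and SOX7 and SOX17 to SOXF. In the lung SOX2 marks proximal airway epithelium and SOX9 the distal tips of the developing airway, and SOX17 is known from endoderm and endothelium. SOXC factors are transcriptional activators, while SOXD factors lack a transactivation domain of their own.

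The start promoters of SOX4, SOX2 and SOX13 are shown because regions over these starts were counted in several lines and gave different results: SOX4 was raised by the combo, SOX2 was reduced in DTP cells, and SOX13 moved least. Each is 300 bases on the plus strand, from 250 before the start to 50 from the start on, taken from RefSeq on GRCh38.p14. They lie at chr6:21593501-21593800 (SOX4), chr3:181711675-181711974 (SOX2) and chr1:204072865-204073164 (SOX13). Capitals mark matches to a SOX core (ACAATG or AACAAT), AP-1 (TGANTCA), TEAD (GGAATG), TCF/LEF (CTTTGA) or a CCAAT box (CCAAT), each read on both strands.
SOX4: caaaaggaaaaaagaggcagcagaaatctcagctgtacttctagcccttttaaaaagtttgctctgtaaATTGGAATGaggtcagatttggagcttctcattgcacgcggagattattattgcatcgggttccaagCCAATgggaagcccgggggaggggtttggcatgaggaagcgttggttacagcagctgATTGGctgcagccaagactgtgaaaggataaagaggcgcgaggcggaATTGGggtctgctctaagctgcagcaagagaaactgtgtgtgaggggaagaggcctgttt
SOX2: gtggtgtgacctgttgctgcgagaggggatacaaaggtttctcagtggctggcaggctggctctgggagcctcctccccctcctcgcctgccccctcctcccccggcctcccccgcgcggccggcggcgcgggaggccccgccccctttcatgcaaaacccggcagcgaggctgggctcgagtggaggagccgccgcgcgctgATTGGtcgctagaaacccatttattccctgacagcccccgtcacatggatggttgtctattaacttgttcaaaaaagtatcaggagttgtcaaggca
SOX13: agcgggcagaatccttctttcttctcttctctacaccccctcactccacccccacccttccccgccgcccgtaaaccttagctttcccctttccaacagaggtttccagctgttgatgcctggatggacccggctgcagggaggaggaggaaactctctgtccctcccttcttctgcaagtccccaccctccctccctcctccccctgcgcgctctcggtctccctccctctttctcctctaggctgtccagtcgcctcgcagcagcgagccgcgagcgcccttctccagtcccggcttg

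The SOX4 promoter held the TEAD letters at -178 and 4 CCAAT letters at -181, -114, -57 and -10 from the start, of which the first overlaps the TEAD match. The SOX2 promoter held 1 CCAAT match at -47, and the SOX13 promoter held none of the motifs. Among 35116 RefSeq promoters of this length, the SOX core letters were in 16.7%, AP-1 in 7.71%, TEAD in 14%, TCF/LEF in 12.9% and CCAAT in 34.6%. At least as many CCAAT matches as in SOX4 were in 348 promoters (0.991%). The CCAAT box was added after the sequences had been seen, and a match describes letters in this window only. Sequences were found for 6 of the 10 genes, and those of SOX5, SOX6 and SOX21 are not printed because the regions measured here do not lie over them or, for SOX21, because there were none.

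Levels are given as CPM, the count of a region scaled to the library's total in the table of its line, and all regions have the same width. Libraries of PC9 held 3989287 to 5193390 counts in all, those of H1975 6200672 to 10062505, those of HCC827 1724680 to 4242868 and those of HCC2935 3968690 to 8066287. Pairs of libraries within a group varied 0.961 to 1.05 times as much as counting noise in PC9, where 7 of 12 pairs showed no excess, and 0.968 to 1.26 times in H1975, where 4 of 12 showed none. Pairs without excess had no detected spread beyond counting noise and may be 1 sample each, while 5 pairs of PC9 and 8 of H1975 showed excess. Because of the pairs without it, calls in PC9 and H1975 are also given with the libraries of a group summed to 1 sample and the spread of HCC2935. The ratio was 1.18 to 1.83 in HCC2935. In HCC827 it was 3.97 to 9.56 for pairs with the library numbered 3 and 1.21 to 2.08 for the others, so HCC827 results are also given without the libraries numbered 3. Start regions of the 5 epithelial markers EPCAM, CDH1, KRT8, KRT18 and KRT7 were present in all lines, NKX2-1 was present in all lines among 3 lung markers, and the blood markers PTPRC and CD3E had no start region in any line. Of the endothelial and stromal markers, COL1A1 had a start region in all 4 lines, CDH5 in 3, and PECAM1 and COL3A1 in 2.

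The first comparison asked which SOX regions differ in DTP cells. A region was called where edgeR's quasi-likelihood p, adjusted after Benjamini and Hochberg across every tested region of its line, was under 0.05. In PC9 20 of 37 SOX regions were called, 7 higher and 13 lower, where 31.7% of all regions were called, 15.4% higher and 16.4% lower. In H1975 13 of 24 were called, 9 higher and 4 lower, against 51.9% of all regions, 24.9% higher and 27% lower, and scaling by library size alone gave 14 higher and 4 lower (55.4% of all regions). In HCC2935 18 of 34 were called, 13 higher and 5 lower, against 37.3% of all regions, 18.7% higher and 18.6% lower. In HCC827 0 of 11 were called, against 0.0219% of all regions, 0.0158% higher and 0.00607% lower. There an unadjusted p under 0.05 was reached by 0 SOX regions with edgeR, 0 with DESeq2 and 3 with limma voom, and the replicate block called 1, against 3.88% of all regions. SOX regions were stronger than the typical region: the median of their mean levels was 5.43 CPM in PC9, against 3.4 CPM over all tested regions, 6.18 against 1.98 CPM in H1975, 7.02 against 5.27 CPM in HCC827 and 5.11 against 2.89 CPM in HCC2935. Over the annotated regions alone 38% were called in PC9, 62.6% in H1975 and 45.1% in HCC2935, and HCC827 had 0.0458%, so the shares of SOX regions lie above these in PC9 and HCC2935 and below in H1975. With libraries summed, 10 of 37 SOX regions were called in PC9 (19.4% of all regions), 10 of 24 in H1975 (40.2%) and 14 of 34 in HCC2935 (32.9%). With the median shift of each 10 Mb removed, the calls were 9 higher and 11 lower in PC9 (30.9% of all regions called) and 8 higher and 8 lower in HCC2935 (31.9%). In DTP libraries of PC9 the start regions of the epithelial markers together held 595 to 617 CPM against 678 to 746 CPM in control, and those of the endothelial and stromal markers 210 to 216 against 310 to 346 CPM. In H1975 the lung markers held 71 to 72.1 CPM in DTP and 77.0 to 88.9 CPM in control, and the endothelial and stromal markers 226 to 242 against 256 to 267 CPM. The epithelial markers there, 697 to 722 against 713 to 742 CPM, overlapped. Single markers of H1975 DTP went both ways in counts summed over a gene, where 69.1% of all genes were called. COL1A1, KRT7, KRT8 and KRT18 were called higher, and CDH5, CDH1, EPCAM, NAPSA, SFTPB and CD3E lower. In HCC2935 the lung markers held 54.5 to 65.6 CPM in DTP and 81.1 to 93.1 CPM in control. The part of these in the SOX changes was not tested, and in such bulk libraries fewer cells of a kind and less open chromatin per cell cannot be told apart.

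**Figure D1:**
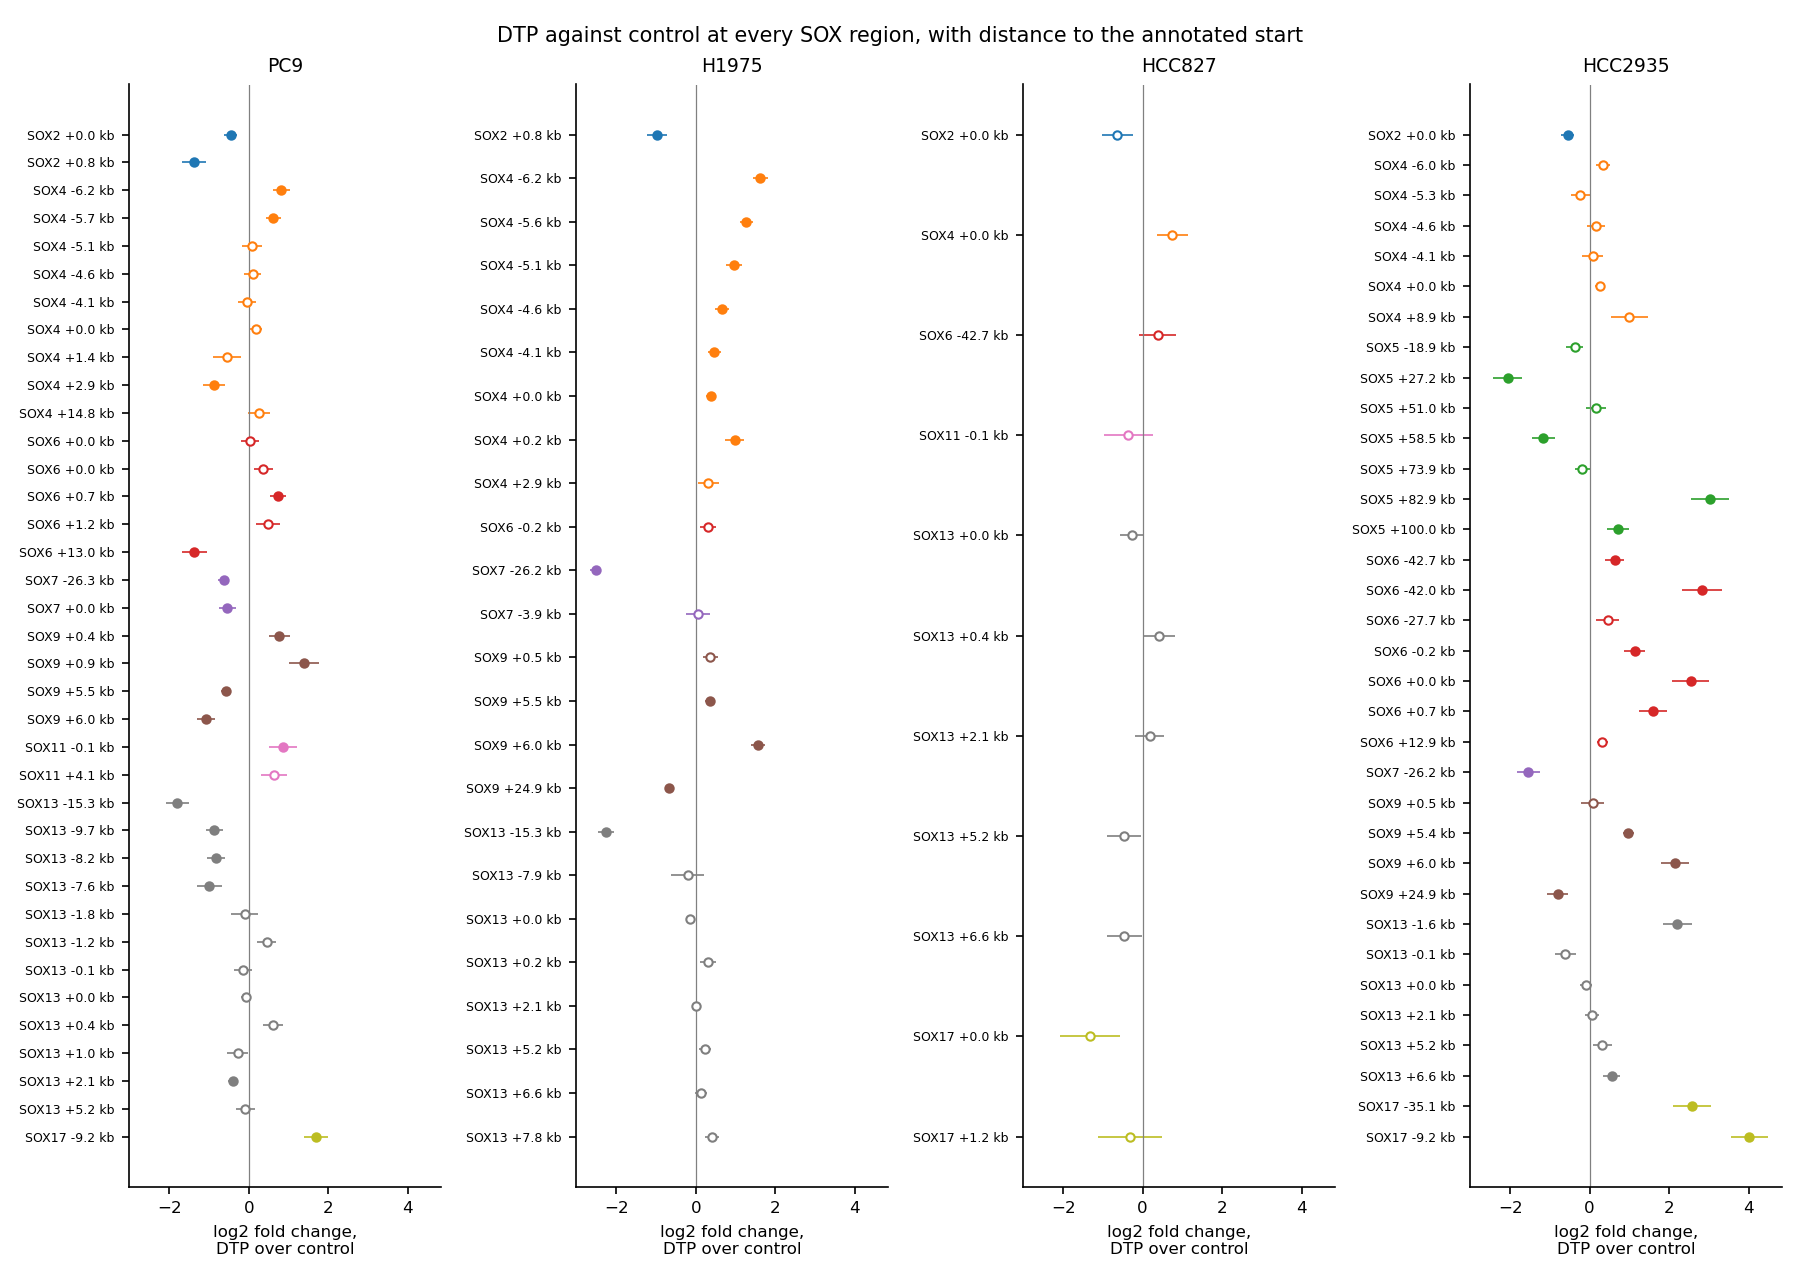
Log2 fold change of DTP over control (horizontal axis, bars are SE) at every SOX region, 1 panel per line and 1 row per region, each named by gene and distance in kb from its annotated start, with filled points for regions past the adjusted p. The SOX17 region at -9.17 kb in HCC2935 is farthest to the right with 4.02, and the SOX7 region at -26.2 kb in H1975 is farthest to the left with -2.52.

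Counts were also summed over all regions of a gene. In PC9 7 of 8 SOX genes were called in DTP cells, against 42.2% of genes, with SOX4, SOX11 and SOX17 higher and SOX2, SOX7, SOX9 and SOX13 lower. In H1975 5 of 6 were called against 69.1% of genes, with SOX4, SOX6 and SOX9 higher and SOX2 and SOX7 lower. The H1975 calls of SOX6, whose 1 region was itself not called, and SOX9 were lost with libraries summed (edgeR adjusted p = 0.102 and 0.131). In HCC2935 5 of 8 were called against 50.4%, with SOX6, SOX9 and SOX17 higher and SOX2 and SOX7 lower. In HCC827 0 of 6 were called by edgeR against 2.43%, with 2 at an unadjusted p under 0.05 by edgeR and 1 by DESeq2. The replicate block, which fits here because same-numbered HCC827 libraries deviated together, gave 2 of 6 in HCC827, against 10.3% of genes. These were SOX4 with a log2 fold change of 0.78 (adjusted p = 0.0327) and SOX17 with -0.92 (adjusted p = 0.0352). Without the libraries numbered 3 SOX17 was not called (-0.68, edgeR adjusted p = 0.101).

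**Figure D2:**
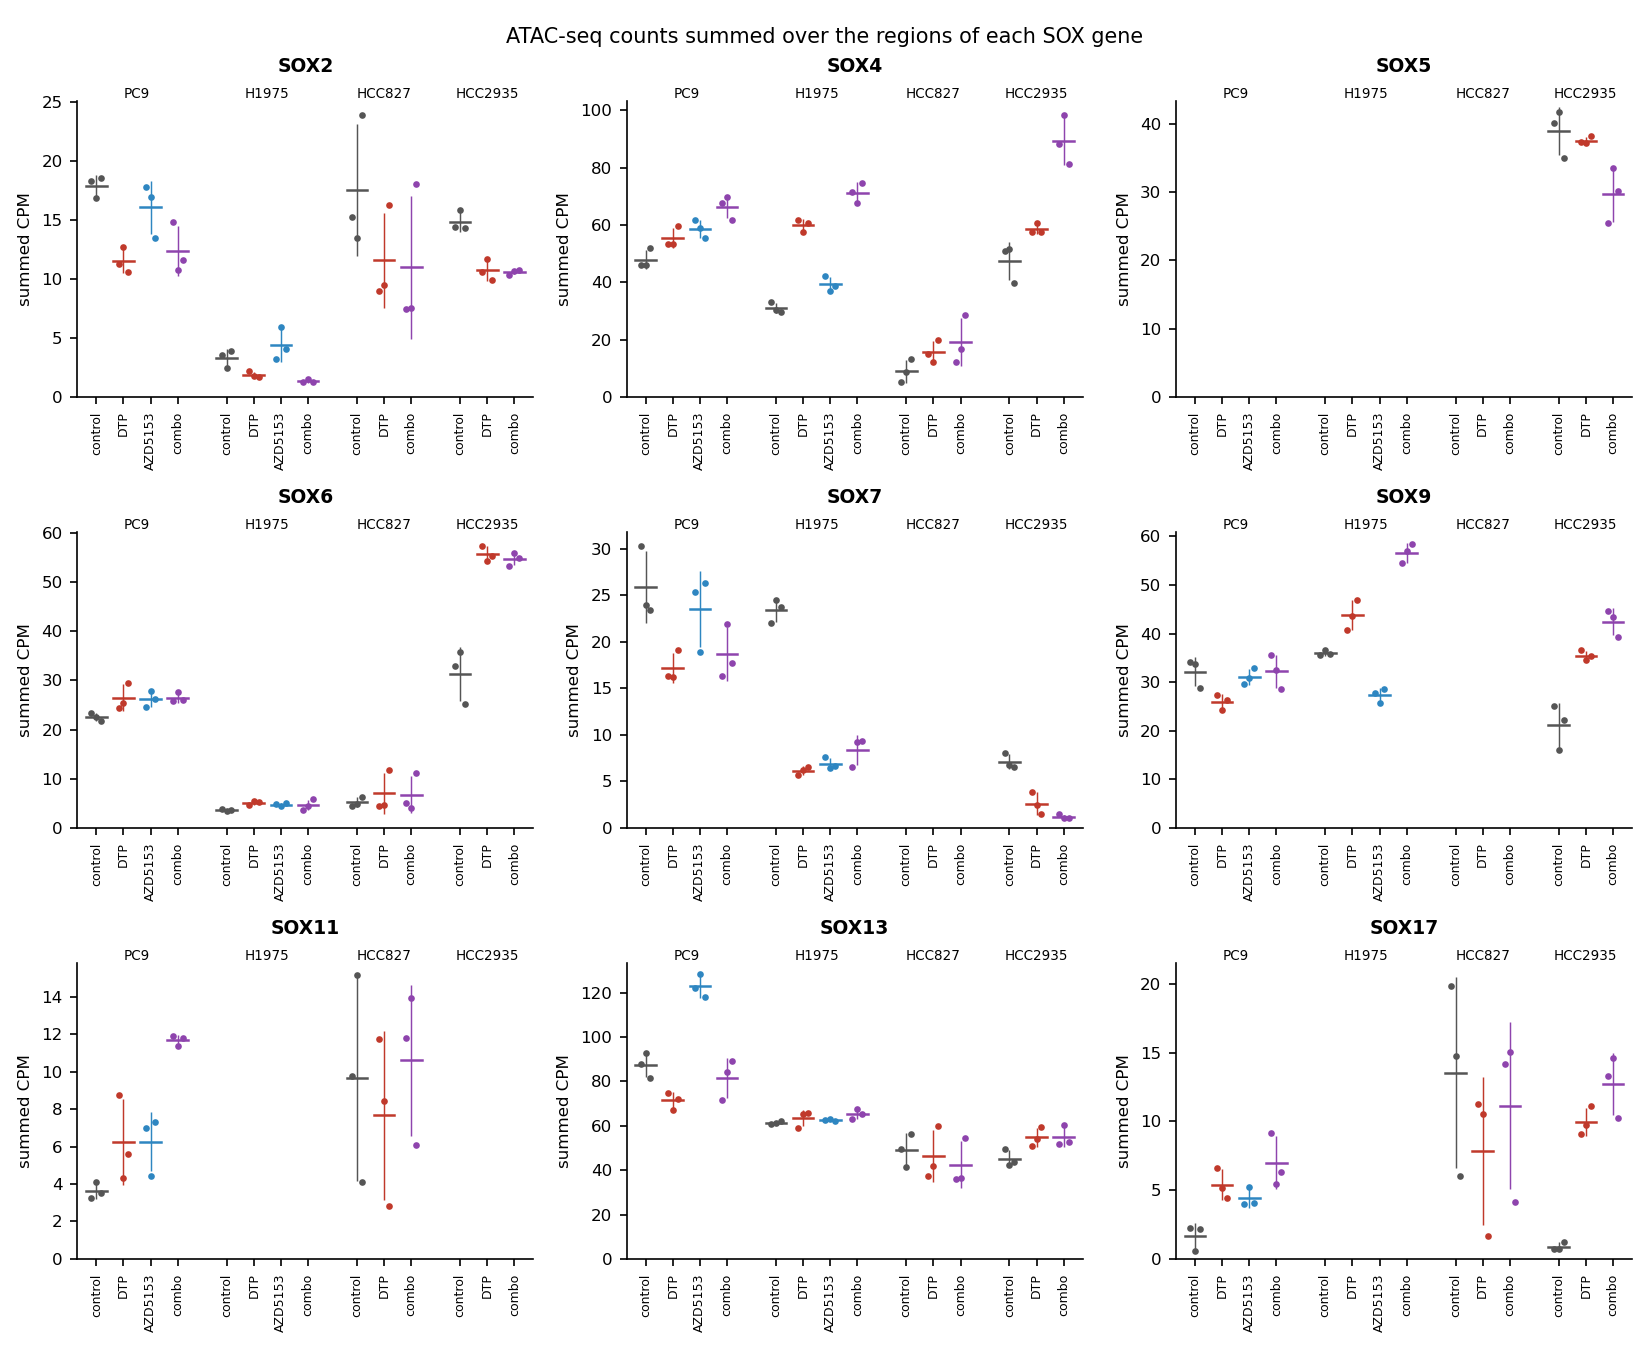
Counts summed over the regions of each SOX gene (vertical axis, CPM), 1 panel per gene, with a point per library, the mean as a horizontal bar and the SD as a vertical line (n = 3) in each of the 14 groups, where a gap is a line with no region of that gene. SOX2 lies lower in DTP than in control in each of the 4 lines, and SOX7 in each of the 3 lines that hold it.

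SOX2, the SOXB factor of airway progenitors, was lower over its start in DTP cells of PC9, H1975 and HCC2935. In PC9 the start region, at chr3:181711632-181712133, held 13.5, 12.7 and 12.5 CPM in control and 9.54, 10.1 and 9.24 CPM in DTP libraries. In HCC2935 it held 14.4, 15.9 and 14.4 CPM in control and 10.6, 11.7 and 9.95 CPM in DTP libraries. All DTP libraries were below all control libraries in both lines, with log2 fold changes of -0.45 (SE 0.16, edgeR adjusted p = 0.0183) and -0.55 (SE 0.17, adjusted p = 0.00784). In HCC827 the values were 15.3, 13.5 and 24.0 CPM in control and 9.03, 9.51 and 16.3 CPM in DTP libraries. There the library numbered 3 was the highest of each group, the groups overlapped, and the change of -0.64 was not called (SE 0.39, edgeR adjusted p = 0.879).

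The only annotated SOX2 region of H1975 lies 0.795 kb past the start and held 3.57, 2.43 and 3.88 CPM in control and 2.16, 1.79 and 1.68 CPM in DTP libraries. It was lower in every DTP library, by a log2 fold change of -0.98 (SE 0.26, edgeR adjusted p = 0.000559), and was called with libraries summed too (adjusted p = 0.00742). The H1975 region over the start itself is in the full table but not in the annotated one, and its log2 fold change was -0.82 (edgeR adjusted p = 0.00114). In PC9 the neighbouring region at 0.756 kb fell from 4.76, 4.12 and 6.06 CPM to 1.75, 2.67 and 1.41 CPM, a log2 fold change of -1.39 (SE 0.30, edgeR adjusted p = 5.44e-05). The PC9 and HCC2935 calls at the start were lost with libraries summed (adjusted p = 0.225 and 0.0817) and with regional medians removed (adjusted p = 0.0642 and 0.0532), while the summed SOX2 counts of PC9, -0.66, and HCC2935, -0.61 (there the 1 region, scaled with gene totals), were also called with libraries summed (adjusted p = 0.00189 and 0.00219). The combo over DTP gave log2 fold changes at the SOX2 start regions of 0.14 (PC9), -0.36 (H1975), -0.05 (HCC827) and -0.03 (HCC2935), none of them called by edgeR.

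SOX4, a SOXC activator linked to epithelial plasticity, was the gene that the combo raised over its start in 3 lines. In PC9 the start region, at chr6:21593431-21593932, held 11, 7.85 and 11.5 CPM in control, 11.9, 12.1 and 10.8 CPM in DTP and 21.1, 23.2 and 19.8 CPM in combo libraries. In HCC2935 the values were 20.6, 21.7 and 18.6 CPM in control, 23.9, 29.4 and 24.4 CPM in DTP and 36.3, 43.1 and 32.9 CPM in combo libraries. Every combo library of both lines was above every DTP library, with log2 fold changes over DTP of 0.89 (SE 0.13, edgeR adjusted p = 6.29e-09) in PC9 and 0.53 (SE 0.12, adjusted p = 0.00195) in HCC2935.

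In H1975 the SOX4 start region held 9.68, 9.95 and 8.67 CPM in control, 12.6, 14.3 and 14.5 CPM in DTP, 6.54, 6.93 and 7.21 CPM in AZD5153 and 20.6, 18.6 and 21.0 CPM in combo libraries. The 4 groups did not overlap, with AZD5153 alone lowest and the combo highest. Against control the start region rose in DTP by a log2 fold change of 0.38 (SE 0.12, edgeR adjusted p = 0.0045) and fell with AZD5153 alone, by -0.61 (SE 0.15, adjusted p = 0.000143), and against DTP it rose in the combo by 0.61 (SE 0.10, adjusted p = 2.47e-07). The interaction, the combo minus DTP change less the AZD5153 minus control change, was 1.22 (SE 0.18, edgeR adjusted p = 7.21e-10) in H1975. The region 0.24 kb past the H1975 start also rose in the combo, from 4.93, 4.75 and 3.67 CPM in DTP to 6.53, 5.86 and 7.35 CPM (0.65, SE 0.17, edgeR adjusted p = 0.0019; 0.123 with libraries summed). In PC9 AZD5153 alone gave 14.2, 10.4 and 10.6 CPM, overlapping the control libraries, and the interaction was 0.75 (SE 0.21, edgeR adjusted p = 0.0058). With libraries summed the H1975 DTP call at the start was lost (edgeR adjusted p = 0.225) and that of AZD5153 alone held (adjusted p = 0.0308). The combo call held in PC9 (adjusted p = 0.00901) and was lost in H1975 (adjusted p = 0.0832) and HCC2935 (adjusted p = 0.14), and the interaction held in H1975 (adjusted p = 0.00184) and was lost in PC9 (adjusted p = 0.277).

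In HCC827 the start region was the only SOX4 region, with 5.20, 8.60 and 13.2 CPM in control, 14.9, 12.2 and 19.8 CPM in DTP and 12.2, 16.8 and 28.6 CPM in combo libraries. Control and DTP libraries overlapped, the change was 0.75 (SE 0.39, edgeR adjusted p = 0.779), and without the libraries numbered 3 it was 1.09 (adjusted p = 0.118). Combo and DTP libraries overlapped too, with 0.31 (SE 0.39, edgeR adjusted p = 1.00). The summed SOX4 counts of HCC827, which are those of this 1 region, were called among genes without the libraries numbered 3, with 1.01 (edgeR adjusted p = 0.0314), where 9.95% of genes were called.

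Upstream of the SOX4 start, at -6.22 to -4.05 kb, lay a row of regions that the files annotate as intronic and that no gene of the RefSeq table spans. In H1975 the farthest of them, at chr6:21587050-21587551, held 2.55, 2.32 and 2.05 CPM in control, 7.81, 7.91 and 8.27 CPM in DTP, 7.84, 5.32 and 6.25 CPM in AZD5153 and 9.56, 9.84 and 10.6 CPM in combo libraries. Every treated group lay above the control, by 1.62 in DTP (SE 0.19, edgeR adjusted p = 5.93e-14) and 1.35 with AZD5153 alone (SE 0.21, adjusted p = 2.65e-09). All 5 upstream regions were called higher in H1975 DTP, with log2 fold changes from 0.47 to 1.62, and with libraries summed all but the weakest, at -4.05 kb (adjusted p = 0.176), remained called. PC9 called 2 of its 5 higher in DTP, the farthest with 0.82 (SE 0.22, edgeR adjusted p = 0.00109) and its neighbour with 0.62 (SE 0.19, adjusted p = 0.00601), and with libraries summed the farthest held (adjusted p = 0.0391) and the neighbour did not (adjusted p = 0.116).

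None of the 4 upstream SOX4 regions of HCC2935 passed the test in DTP (edgeR adjusted p from 0.149 to 0.842), and the combo raised the farthest 2. The region at -5.99 kb held 9.11, 7.93 and 6.80 CPM in control, 11.5, 9.58 and 11.4 CPM in DTP and 20.2, 19.6 and 19.1 CPM in combo libraries, and every combo library was above every DTP library (0.86, SE 0.15, edgeR adjusted p = 0.000129). Its neighbour at -5.27 kb rose in the combo by 0.85 (SE 0.20, edgeR adjusted p = 0.00467). The region at 8.88 kb, 1.23 in the combo (SE 0.31, edgeR adjusted p = 0.0069), was also called. Not all SOX4 regions rose in DTP. In PC9 the region 2.92 kb past the start fell, from 4.51, 4.71 and 5.08 CPM in control to 2.34, 2.46 and 3.21 CPM in DTP libraries. Its log2 fold change was -0.87 (edgeR adjusted p = 0.00912), and it was not called with libraries summed. Over all SOX4 regions the summed counts were 33.0, 30.3 and 29.7 CPM in H1975 control and 61.6, 57.5 and 60.9 CPM in H1975 DTP, a log2 fold change of 0.90 (SE 0.06, edgeR adjusted p = 1.61e-27). In PC9 the gene sum rose in DTP by 0.18 (SE 0.07, edgeR adjusted p = 0.0372), a call lost with libraries summed (adjusted p = 0.373), and in HCC2935 it was 0.14 (adjusted p = 0.185).

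**Figure D3:**
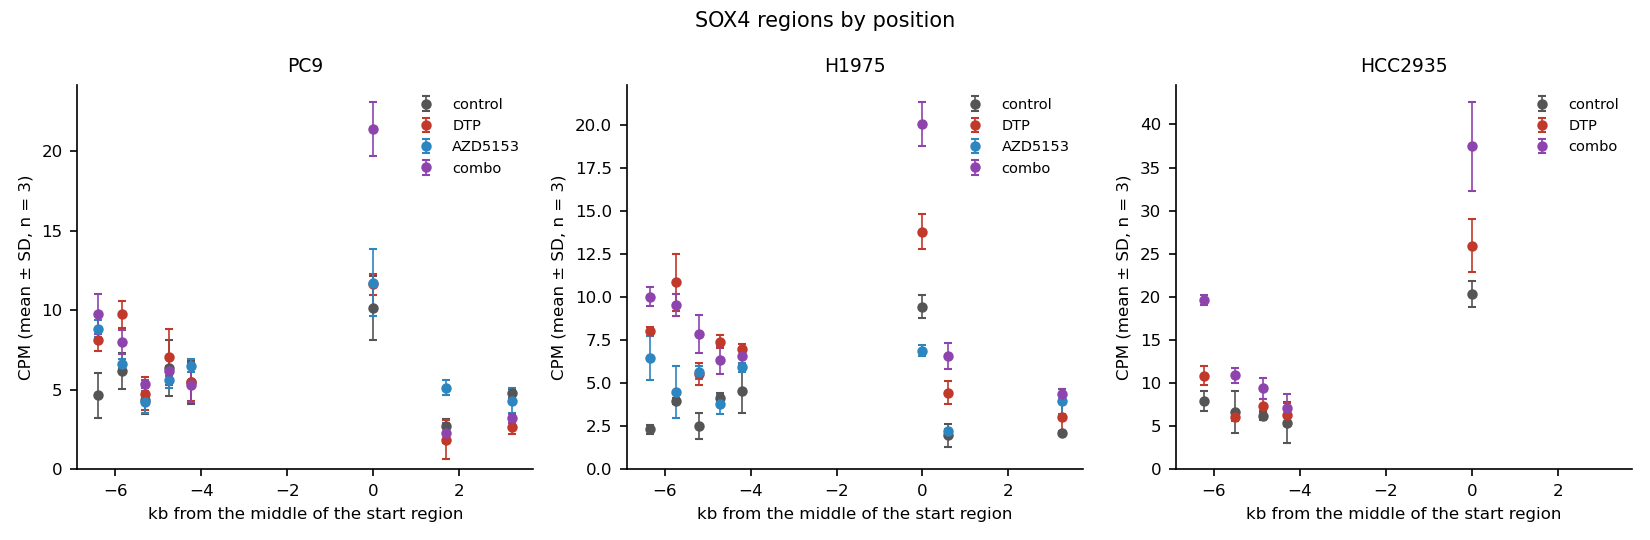
Level of each SOX4 region (vertical axis, CPM, mean with SD, n = 3) against its distance in kb from the middle of the start region (horizontal axis) in PC9, H1975 and HCC2935, with a colour per group, regions farther downstream left out. The start region at 0 kb is highest in the combo in all 3 panels, and the upstream regions of H1975 are higher in DTP and combo than in control.

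SOX11, the other SOXC gene, had regions in PC9 and HCC827 only. Its PC9 start region, at chr2:5691817-5692318, held 1.5, 2.16 and 1.37 CPM in control, 4.48, 1.64 and 3.21 CPM in DTP, 4.40, 2.31 and 4.62 CPM in AZD5153 and 7.41, 6.11 and 6.96 CPM in combo libraries. The combo was above all other libraries, AZD5153 alone was above the control, and 1 DTP library lay within the control range. The log2 fold change was 0.85 in DTP over control (SE 0.35, edgeR adjusted p = 0.048), 1.13 in the combo over DTP (SE 0.25, adjusted p = 0.000117) and 1.06 with AZD5153 alone (SE 0.33, adjusted p = 0.00862). With libraries summed the DTP call was lost (adjusted p = 0.136) and the others held (0.0112 and 0.0462). The deposited peak lists had a peak over this start in 0 of 3 control, 2 of 3 DTP, 3 of 3 AZD5153 and 3 of 3 combo libraries. In HCC827 the start region held 9.75, 15.1 and 4.13 CPM in control, 11.7, 8.45 and 2.83 CPM in DTP and 11.8, 13.9 and 6.11 CPM in combo libraries, which overlapped and were lowest in each library numbered 3.

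SOX5 and SOX6 are SOXD partners known from cartilage. SOX5 had 7 regions in HCC2935 and none in the other lines, and 2 of them were called higher and 2 lower in DTP. The region at 82.9 kb, in an intron, held 0.182, 0.699 and 0.504 CPM in control, from 1, 3 and 2 reads, and 3.90, 4.00 and 3.98 CPM in DTP libraries (3.03, SE 0.48, edgeR adjusted p = 2.42e-06). Its SE may be too small with so few control reads. The intronic region at 27.2 kb went the other way, from 4.55, 3.96 and 4.54 CPM to 1.14, 1.43 and 0.663 CPM (-2.06, SE 0.36, edgeR adjusted p = 1.12e-05), and so did the distal one at 58.5 kb (-1.16, SE 0.29, adjusted p = 0.00129). None of these groups overlapped. The 10 Mb around these regions had a median log2 fold change of 0.72 in HCC2935 DTP, and with that shift removed the summed SOX5 counts moved from -0.21 (edgeR adjusted p = 0.073) to -0.86 (adjusted p = 1.87e-08). In the combo over DTP the SOX5 sum was lower by -0.37 (SE 0.10, edgeR adjusted p = 0.00796), which was lost with libraries summed (adjusted p = 0.0577).

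SOX6 was higher in DTP cells of HCC2935 at 5 of its 7 regions. The region at chr11:16606174-16606675, next to an annotated start, held 2.91, 3.26 and 2.77 CPM in control and 6.99, 7.86 and 5.97 CPM in DTP libraries, without overlap (1.13, SE 0.26, edgeR adjusted p = 0.000616). The region 0.681 kb past that start rose from 1.64, 1.17 and 1.51 CPM to 6.18, 5.00 and 2.82 CPM (1.59, SE 0.36, edgeR adjusted p = 0.000417). The 10 Mb around SOX6 moved by a median of 0.97 in HCC2935 DTP, and with it removed these became 0.25 (adjusted p = 0.501) and 0.71 (adjusted p = 0.134), and the SOX6 gene sum went from 0.67 (adjusted p = 1.72e-06) to -0.21 (adjusted p = 0.0971). What part of the SOX6 change goes with that regional shift was not tested. The region 0.682 kb past the start was also higher in PC9 DTP, with 6.02, 5.10 and 4.69 CPM in control and 9.15, 8.82 and 8.84 CPM in DTP libraries (0.75, SE 0.20, edgeR adjusted p = 0.00166; 0.0568 with libraries summed). In PC9 the median of its 10 Mb was -0.02 and the change with it removed was 0.73. The region over the neighbouring SOX6 start, at chr11:16607483-16607984, held 0.911, 0.699 and 0 CPM in control, 3.09, 3.72 and 4.31 CPM in DTP and 5.18, 6.82 and 7.63 CPM in combo libraries of HCC2935, and was the 1 SOX6 region that the combo raised over DTP (0.82, SE 0.26, edgeR adjusted p = 0.0392; 0.075 with libraries summed). Its 3 groups did not overlap. The intronic region at 13 kb fell in PC9 DTP, from 3.76, 5.30 and 4.11 CPM to 1.75, 1.85 and 1.61 CPM (-1.37, SE 0.32, edgeR adjusted p = 0.000166), and every DTP library was below the controls.

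SOX13, a SOXD factor that can bind TCF proteins, kept a strong start region that was not called in DTP cells of any line. Its changes over control were -0.06 (PC9), -0.14 (H1975), -0.27 (HCC827) and -0.09 (HCC2935), with edgeR adjusted p from 0.187 to 1.00. The distal region at -15.3 kb behaved otherwise in the 2 lines that hold it. In PC9 it held 7.27, 7.06 and 4.50 CPM in control, 1.36, 1.85 and 2.21 CPM in DTP, 11.4, 9.84 and 8.47 CPM in AZD5153 and 0.780, 1.26 and 1.90 CPM in combo libraries. In H1975 it held 8.91, 8.29 and 7.76 CPM in control, 2.28, 1.58 and 1.99 CPM in DTP, 5.82, 5.64 and 5.83 CPM in AZD5153 and 2.33, 2.54 and 1.69 CPM in combo libraries. DTP was below control in every library, by -1.80 in PC9 (SE 0.29, edgeR adjusted p = 1.91e-08) and -2.26 in H1975 (SE 0.20, adjusted p = 3.62e-23), and both held with libraries summed (1.70e-05 and 2.16e-13). AZD5153 alone was above control in PC9 (0.59, SE 0.19, edgeR adjusted p = 0.0111; 0.151 with libraries summed) and below it in H1975 (-0.68, SE 0.16, adjusted p = 8.11e-05; 0.0181), and with regional medians removed the H1975 change was -0.22 (adjusted p = 0.248).

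In the SOX13 intron at -9.75 to -7.60 kb from an inner start, 3 PC9 regions fell in DTP and rose with AZD5153, although at -7.60 kb the AZD5153 call was lost with libraries summed (edgeR adjusted p = 0.183). The middle one, at chr1:204104183-204104684, held 9.27, 6.67 and 6.84 CPM in control, 3.70, 4.51 and 4.62 CPM in DTP, 18.0, 20.1 and 19.4 CPM in AZD5153 and 6.44, 8.22 and 9.07 CPM in combo libraries. DTP lay below and AZD5153 far above the control, and the combo was again above DTP. The changes were -0.83 in DTP (SE 0.22, edgeR adjusted p = 0.00131), 1.28 with AZD5153 alone (SE 0.15, adjusted p = 3.67e-14) and 0.89 in the combo over DTP (SE 0.22, adjusted p = 0.000796), and all held with libraries summed (0.0342, 3.53e-05 and 0.0429). The H1975 intron region at -7.89 kb overlaps the middle PC9 region and that at -7.60 kb only in part, and was matched to neither. It held 1.15, 0.885 and 0.799 CPM in control and 4.04, 4.19 and 4.98 CPM with AZD5153 alone (2.08, SE 0.29, edgeR adjusted p = 1.08e-10). The distal H1975 region at 7.79 kb went the other way, from 4.46, 3.54 and 4.22 CPM in control to 1.66, 1.61 and 1.80 CPM with AZD5153 (-1.40, SE 0.25, edgeR adjusted p = 2.87e-07). The gene sum of SOX13 rose with AZD5153 in PC9, from 88.0, 92.6 and 81.7 CPM to 122, 128 and 118 CPM (0.43, SE 0.05, edgeR adjusted p = 1.31e-13), and in H1975 it was 0.01 (adjusted p = 0.801), where removing the shift of the surrounding 10 Mb (median -0.49) gave 0.48 (adjusted p = 3.91e-11).

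HCC2935 opened a region at -1.61 kb from the same inner SOX13 start in DTP cells. It held 1.09, 0.699 and 1.51 CPM in control, 5.37, 3.72 and 7.46 CPM in DTP and 3.56, 2.85 and 4.68 CPM in combo libraries, with all DTP libraries above the controls (2.21, SE 0.38, edgeR adjusted p = 8.22e-06). In PC9 the region at -1.83 kb was raised by the combo over DTP instead (0.95, SE 0.30, edgeR adjusted p = 0.0111; 0.0797 with libraries summed). The PC9 region at 2.13 kb from an annotated start was the single SOX region called lower in the combo over DTP by the main edgeR test. It fell from 14.8, 14.4 and 14.9 CPM in DTP to 9.36, 10.3 and 11.6 CPM (-0.49, SE 0.15, edgeR adjusted p = 0.00934). The call was lost with libraries summed.

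SOX9, the SOXE factor of distal airway progenitors and cartilage, had a pair of regions just past the end of the gene in 3 lines, where the files annotate an intron and the RefSeq table has no gene. In PC9 the region at 5.46 kb held 20.3, 20.8 and 18.2 CPM in control and 14.6, 13.1 and 12.7 CPM in DTP libraries. In H1975 the matching region held 11.3, 10.8 and 12.2 CPM in control and 15.9, 17.5 and 15.9 CPM in DTP libraries, and in HCC2935 11.7, 9.33 and 9.83 CPM in control and 22.0, 21.9 and 21.4 CPM in DTP libraries. DTP was lower than control in every PC9 library and higher in every H1975 and HCC2935 library. The changes were -0.58 (SE 0.13, edgeR adjusted p = 0.000119), 0.35 (SE 0.11, adjusted p = 0.0046) and 0.98 (SE 0.15, adjusted p = 1.25e-06), and with libraries summed only that of HCC2935 held (0.076, 0.265 and 0.000683).

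The adjoining SOX9 region, at chr17:72126994-72127495 in PC9, showed the same split on a larger scale. It held 9.27, 8.24 and 6.84 CPM in control and 4.09, 3.69 and 3.82 CPM in DTP libraries of PC9, and 3.31, 2.21 and 2.62 CPM in control and 8.05, 10.0 and 8.80 CPM in DTP libraries of H1975. In HCC2935 it held 1.82, 0.699 and 1.01 CPM in control and 6.18, 4.86 and 6.63 CPM in DTP libraries. No groups overlapped, and the changes were -1.08 in PC9 (SE 0.22, edgeR adjusted p = 2.14e-05), 1.57 in H1975 (SE 0.19, adjusted p = 4.15e-14) and 2.14 in HCC2935 (SE 0.35, adjusted p = 4.80e-06), all called with libraries summed too (0.00416, 3.48e-07 and 8.64e-07). Tested directly on matched regions by limma, the PC9 change was lower than that of H1975 by -2.57 (SE 0.31, adjusted p = 5.93e-10) and than that of HCC2935 by -3.03 (SE 0.50, adjusted p = 7.91e-06). At the nearer region the differences were -0.88 (SE 0.16, limma adjusted p = 1.30e-05) and -1.40 (SE 0.19, adjusted p = 9.59e-08), and against HCC827, where the region is in the full table only, -1.86 (SE 0.44, adjusted p = 0.00842). The limma test between lines took every library as a separate sample and was not run with libraries summed. Where PC9 or H1975 enters, its SE and p may therefore be too small.

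The region nearest to the SOX9 start, 0.419 kb past it, rose in PC9 DTP, from 3.26, 3.92 and 2.15 CPM to 5.84, 4.31 and 6.02 CPM (0.77, SE 0.26, edgeR adjusted p = 0.0149; 0.0968 with libraries summed). The summed PC9 counts of SOX9, most of which come from the regions past its end, were lower in DTP, -0.33 (SE 0.10, edgeR adjusted p = 0.00374), and with libraries summed this was not called (adjusted p = 0.0888). In H1975 the region nearest to the start held 4.58, 3.98 and 3.54 CPM in control, 5.65, 5.49 and 6.39 CPM in DTP, 8.56, 9.19 and 8.27 CPM in AZD5153 and 9.45, 8.18 and 8.35 CPM in combo libraries. Both groups with AZD5153 were above control and DTP, by 0.94 over control (SE 0.17, edgeR adjusted p = 3.43e-07) and by 0.64 over DTP (SE 0.15, adjusted p = 0.00038; 0.112 with libraries summed). A region at 24.9 kb went down in DTP of H1975 (-0.67, SE 0.11, edgeR adjusted p = 2.23e-08) and HCC2935 (-0.81, SE 0.27, adjusted p = 0.0143), and further with AZD5153 alone in H1975 (-1.23, SE 0.12, adjusted p = 1.14e-18).

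SOX7, a SOXF factor known from endothelium and often described as an inhibitor of Wnt signalling, held the region with the largest fall. It lies at -26.2 kb, chr8:10756739-10757240 in H1975, inside the RefSeq long non-coding gene SOX7-AS1. In H1975 it held 21.0, 23.0 and 21.5 CPM in control, 3.85, 4.33 and 4.61 CPM in DTP, 2.14, 2.42 and 2.23 CPM in AZD5153 and 5.25, 7.19 and 8.05 CPM in combo libraries. The 4 groups did not overlap. DTP was below control by -2.52 (SE 0.13, edgeR adjusted p = 2.45e-48), AZD5153 alone by -3.43 (SE 0.16, adjusted p = 1.46e-56), and the combo was above DTP by 0.76 (SE 0.17, adjusted p = 0.000186), the last of these lost with libraries summed (adjusted p = 0.0582). The interaction of 4.19 (SE 0.24, edgeR adjusted p = 8.84e-42) was the largest of any SOX region.

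The same SOX7 region fell in DTP cells of PC9 and HCC2935. PC9 held 22.1, 16.5 and 17 CPM in control, 11.5, 11.3 and 13.5 CPM in DTP, 16.4, 11.2 and 16.6 CPM in AZD5153 and 12.3, 15 and 12.4 CPM in combo libraries. HCC2935 held 8.01, 6.76 and 6.55 CPM in control, 3.90, 2.43 and 1.49 CPM in DTP and 1.46, 1.12 and 1.04 CPM in combo libraries. DTP was below control in every library, by -0.62 in PC9 (SE 0.14, edgeR adjusted p = 7.62e-05; 0.0559 with libraries summed) and -1.54 in HCC2935 (SE 0.28, adjusted p = 2.85e-05; 1.88e-05). The combo of HCC2935 lay below its DTP libraries, but the change of -1.11 at the region missed the threshold (SE 0.37, edgeR adjusted p = 0.0532), while the gene sum, which is this region alone, was called among genes at -1.15 (adjusted p = 0.031). The fall in PC9 was smaller than in H1975 by 1.94 (SE 0.21, limma adjusted p = 2.33e-11) and than in HCC2935 by 1.15 (SE 0.32, adjusted p = 0.00663). Peak lists had this region in 3 of 3 control, 1 of 3 DTP and 0 of 3 combo libraries of HCC2935 and in all libraries of PC9 and H1975.

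Other SOX7 regions were few. The PC9 start region held 8.27, 7.45 and 6.45 CPM in control and 4.87, 4.92 and 5.62 CPM in DTP libraries, without overlap (-0.54, SE 0.21, edgeR adjusted p = 0.0398; 0.202 with libraries summed). In H1975 a region at -3.9 kb held 1.02, 1.55 and 2.28 CPM in control, 1.80, 1.9 and 1.99 CPM in DTP, 5.47, 4.03 and 4.45 CPM in AZD5153 and 1.28, 2.10 and 1.29 CPM in combo libraries. It was raised by AZD5153 alone (1.36, SE 0.25, edgeR adjusted p = 6.84e-07), not called in the combo over DTP (-0.21, adjusted p = 0.679), and the interaction was -1.57 (SE 0.40, adjusted p = 0.000456).

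SOX17, the other SOXF gene, was higher in DTP cells of PC9 and HCC2935 at a region at -9.16 kb, chr8:54448272-54448773 in PC9, which the files call distal intergenic and which lies inside the RefSeq non-coding gene LOC105375841. PC9 held 2.26, 0.588 and 2.15 CPM in control, 6.62, 5.13 and 4.42 CPM in DTP, 4.00, 5.21 and 4.04 CPM in AZD5153 and 9.17, 5.48 and 6.33 CPM in combo libraries. HCC2935 held 0, 0.233 and 1.01 CPM in control, from 0, 1 and 4 reads, and 5.69, 6.15 and 8.12 CPM in DTP libraries. All treated libraries were above all control libraries in both lines. The DTP change was 1.69 in PC9 (SE 0.31, edgeR adjusted p = 1.03e-06) and 4.02 in HCC2935 (SE 0.46, adjusted p = 2.42e-09), and AZD5153 alone gave 1.35 in PC9 (SE 0.32, adjusted p = 0.00034), with all 3 called with libraries summed (0.000163, 2.84e-14 and 0.00575). With so few control reads the size of the HCC2935 change is uncertain and its SE may be too small. A second HCC2935 region, at -35.1 kb, rose from 0.729, 0.466 and 0.252 CPM to 3.41, 3.57 and 2.98 CPM (2.58, SE 0.47, edgeR adjusted p = 2.42e-05), and the median of the surrounding 10 Mb was 0.52 there.

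In HCC827 the SOX17 start itself was open. It held 11.7, 9.41 and 3.58 CPM in control, 5.87, 3.70 and 0.707 CPM in DTP and 8.26, 8.70 and 3.05 CPM in combo libraries. DTP was lower than control within each library number, the groups overlapped, and the change was -1.33 (SE 0.75, edgeR adjusted p = 0.828), with the replicate block -1.38 (adjusted p = 0.0499) and without the libraries numbered 3 -1.04 (adjusted p = 0.188). Peak lists had a peak over it in 3 of 3 control, 0 of 3 DTP and 3 of 3 combo libraries.

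**Figure D4:**
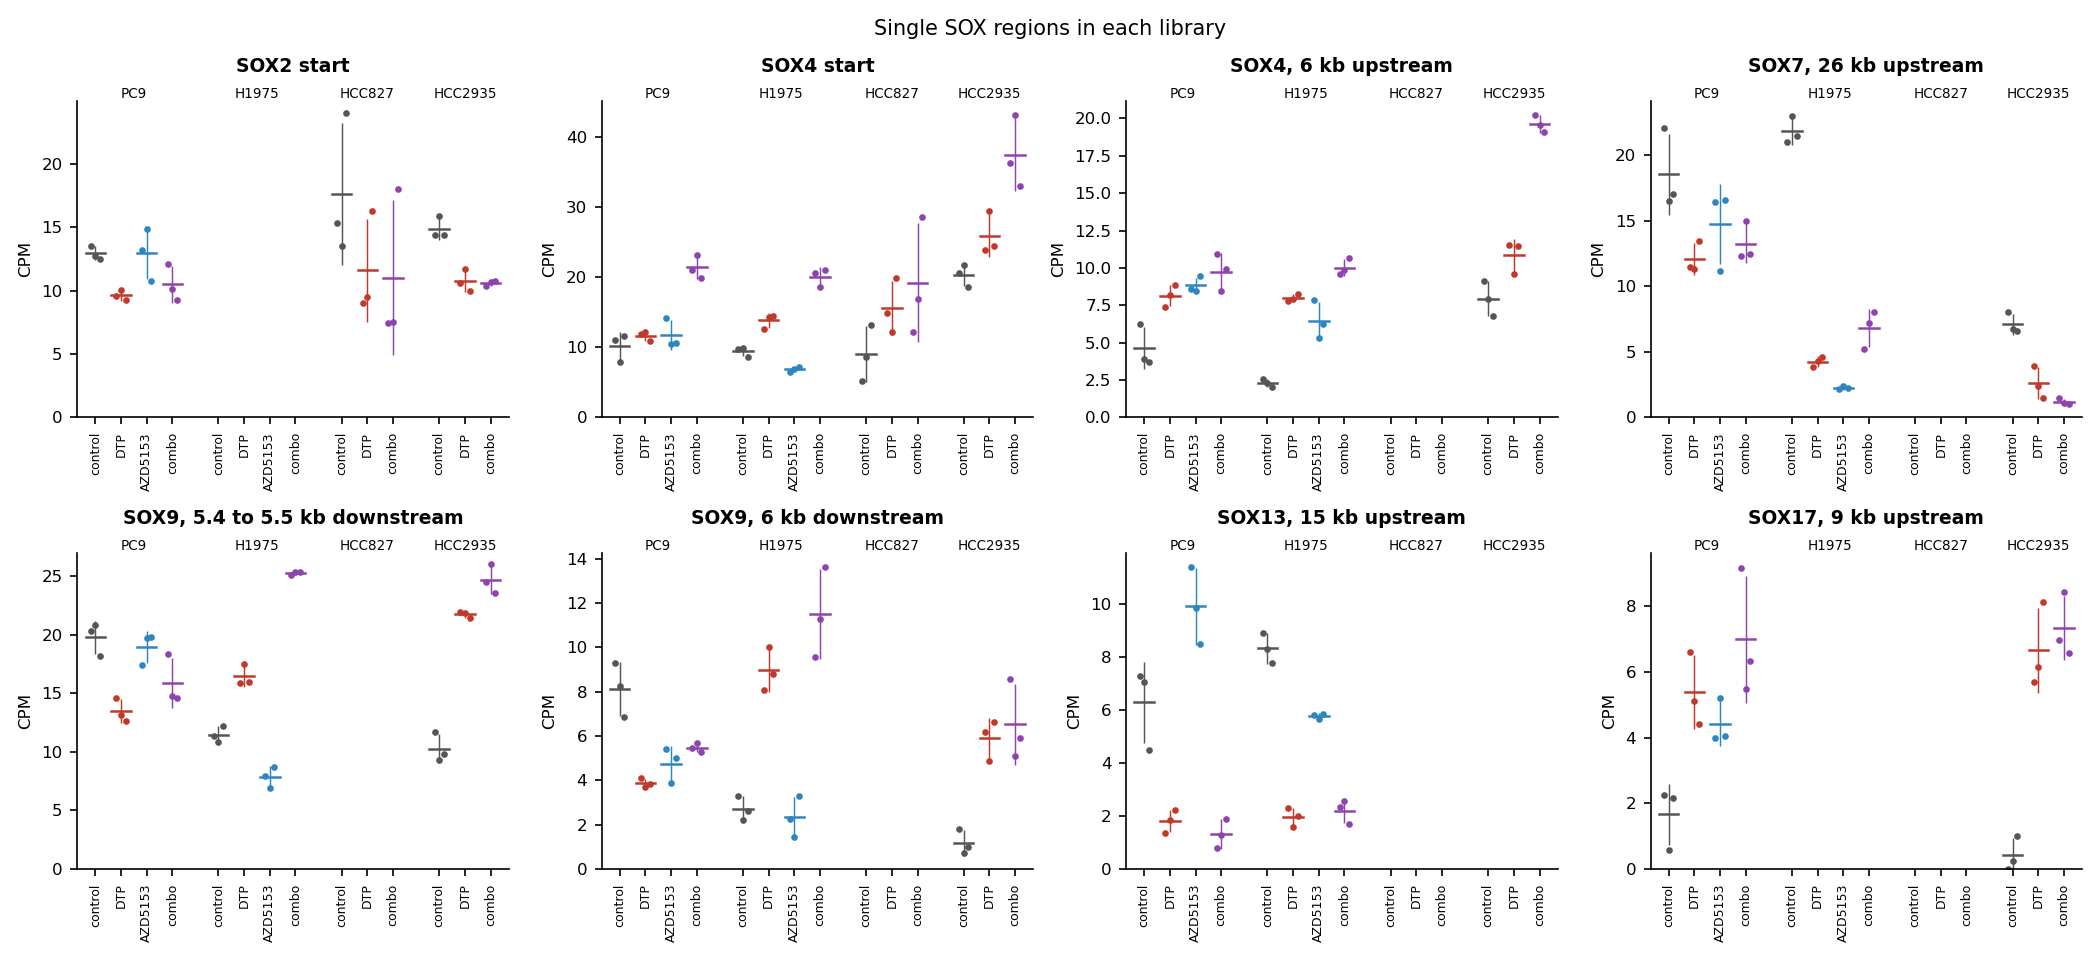
Level of single SOX regions (vertical axis, CPM) in each library of the lines that hold them, with a point per library, the mean as a horizontal bar and the SD as a vertical line (n = 3). The SOX7 region at -26.2 kb is lower in DTP than in control in 3 lines, and the SOX9 region near 6 kb is lower in PC9 DTP and higher in H1975 and HCC2935 DTP.

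The second comparison, of the combo with DTP, asked what AZD5153 changes in cells that had been in osimertinib. Whether osimertinib stayed on in the last 3 days is left unsaid by the labels, so AZD5153 and an end of osimertinib cannot be told apart here. Of the SOX regions 7 were called in the combo over DTP in PC9, 6 higher and 1 lower, against 22.3% of all regions, 10.6% higher and 11.7% lower, and 29.2% of the annotated ones. Summing libraries left 4 called (8.11% of all regions). In H1975 10 of 24 were called, all higher, against 21% of all regions, 11.5% higher and 9.48% lower, and 32.6% of the annotated ones, and libraries summed called 1 (5.97% of all regions). In HCC2935 5 of 34 were called, all higher, against 8.31% of all regions, 1.9% higher and 6.4% lower, and 12.9% of the annotated ones. The replicate block called 7 there (8.98% of all regions), and libraries summed 3 (5.36%). In HCC827 0 of 11 were called by edgeR, against 0% of all regions, with 0 at an unadjusted p under 0.05 by edgeR, 0 by DESeq2 and 1 by limma voom. Among gene sums SOX4, SOX9 and SOX11 were higher in PC9 (33.1% of genes called), SOX4, SOX7 and SOX9 were higher in H1975 (39.1%), SOX4 was higher and SOX5 and SOX7 lower in HCC2935 (15.2%), and 0 of 6 were called in HCC827 (0%), with 0 at an unadjusted p under 0.05 by edgeR and by DESeq2. With libraries summed, SOX11 was called in PC9 (edgeR adjusted p = 0.0021), SOX4 and SOX9 were not (adjusted p = 0.343 and 0.281), and the 3 genes of H1975 had adjusted p from 0.0605 to 0.275. From DTP to combo the start regions of the epithelial markers went from 595 to 617 CPM to 742 to 748 CPM in PC9 and from 697 to 722 CPM to 835 to 872 CPM in H1975. The endothelial and stromal markers of H1975 went from 226 to 242 CPM to 206 to 220 CPM, and NKX2-1, the lung marker of PC9, from 32.0 to 37.6 CPM to 26.5 to 29.3 CPM. The lung markers of HCC2935 went from 54.5 to 65.6 CPM to 70.0 to 77.9 CPM. None of these groups overlapped. The endothelial and stromal markers of PC9 held 210 to 216 CPM in DTP and 201 to 210 CPM in combo libraries. The part of all these in the SOX changes was not tested.

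AZD5153 alone was compared with control in PC9 and H1975. In PC9 15 of 37 SOX regions were called, 12 higher and 3 lower, against 25.8% of all regions, 11.2% higher and 14.6% lower, and 32.4% of the annotated ones. In H1975 15 of 24 were called, 7 higher and 8 lower, against 58.1%, 26.7% higher and 31.4% lower, but 72.2% of the annotated ones. With libraries summed the counts were 8 (14.1% of all regions) and 11 (48.2%). Scaling by library size alone gave 10 higher and 6 lower in H1975 (60.4% of all regions called), and regional medians removed gave 9 and 6 (53.5%). Gene sums of SOX4, SOX11, SOX13 and SOX17 were higher in PC9 (35.2% of genes called), of which SOX13 and SOX17 held with libraries summed (edgeR adjusted p = 0.00509 and 0.00104), and in H1975 SOX4 was higher and SOX7 and SOX9 lower (78.2%). The H1975 rise of SOX4, 0.33 (SE 0.07, edgeR adjusted p = 9.11e-06), became 0.02 with regional medians removed (adjusted p = 0.78). In H1975 the start regions of the 5 epithelial markers together held 379 to 395 CPM with AZD5153 and 713 to 742 CPM in control, those of the 3 lung markers 60.4 to 65.2 and 77.0 to 88.9 CPM, and those of the 4 other markers with a start region 153 to 167 and 256 to 267 CPM. Of these 4, PECAM1 was called higher and CDH5, COL1A1 and COL3A1 lower by gene sums. The part of all these markers in the SOX changes was not tested.

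The interaction tested whether the change of the combo over DTP differed from that of AZD5153 over control. An end of osimertinib in the combo, on which the labels are silent, cannot be told apart from AZD5153 here either. It was called at 3 of 37 SOX regions in PC9, all positive, against 13.8% of all regions, 7.32% positive and 6.46% negative, and 18.9% of the annotated ones. In H1975 it was called at 11 of 24, 8 positive and 3 negative, against 42.5%, 24.4% positive and 18.2% negative, but 59.8% of the annotated ones. With libraries summed 1 (4.81% of all regions) and 6 (30.9%) were called. The H1975 split was 5 positive and 9 negative with library size scaling, under which the median of all regions was -0.32 and 46.7% were called, and 6 and 6 with regional medians removed (37.7%). In PC9 the 3 regions were the SOX4 start, the SOX13 region at -1.83 kb (1.47, SE 0.48, edgeR adjusted p = 0.0202; 0.111 with libraries summed) and the SOX9 region at 5.97 kb. The last of these held 5.4, 3.86 and 5.01 CPM with AZD5153 alone and 5.46, 5.69 and 5.27 CPM in the combo, all below its control libraries, with the combo above its DTP libraries and AZD5153 alone overlapping them. It had a change of -0.84 with AZD5153 alone over control (SE 0.21, edgeR adjusted p = 0.000759), 0.51 in the combo over DTP (adjusted p = 0.126) and an interaction of 1.34 (SE 0.32, adjusted p = 0.000885). In H1975 the SOX9 region at 5.5 kb had 7.96, 6.93 and 8.69 CPM with AZD5153 alone and 25.1, 25.3 and 25.3 CPM in the combo, the lowest and the highest group, with an interaction of 1.37 (SE 0.16, edgeR adjusted p = 7.06e-14; 0.000277 with libraries summed). Gene sums gave an interaction of both signs. In PC9 it was positive for SOX9 (0.35) and negative for SOX13 (-0.31) and SOX17 (-1.05), where 23% of genes were called. In H1975 it was negative for SOX2 (-0.83) and positive for SOX9 (0.74) and SOX7 (70.3% of genes called), led by SOX7 with 2.19 (SE 0.19, edgeR adjusted p = 8.73e-21). With libraries summed SOX7 and SOX9 of H1975 were called, and SOX2 of H1975 (edgeR adjusted p = 0.0724) and the 3 genes of PC9 (from 0.131 to 0.379) were not.

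**Figure D5:**
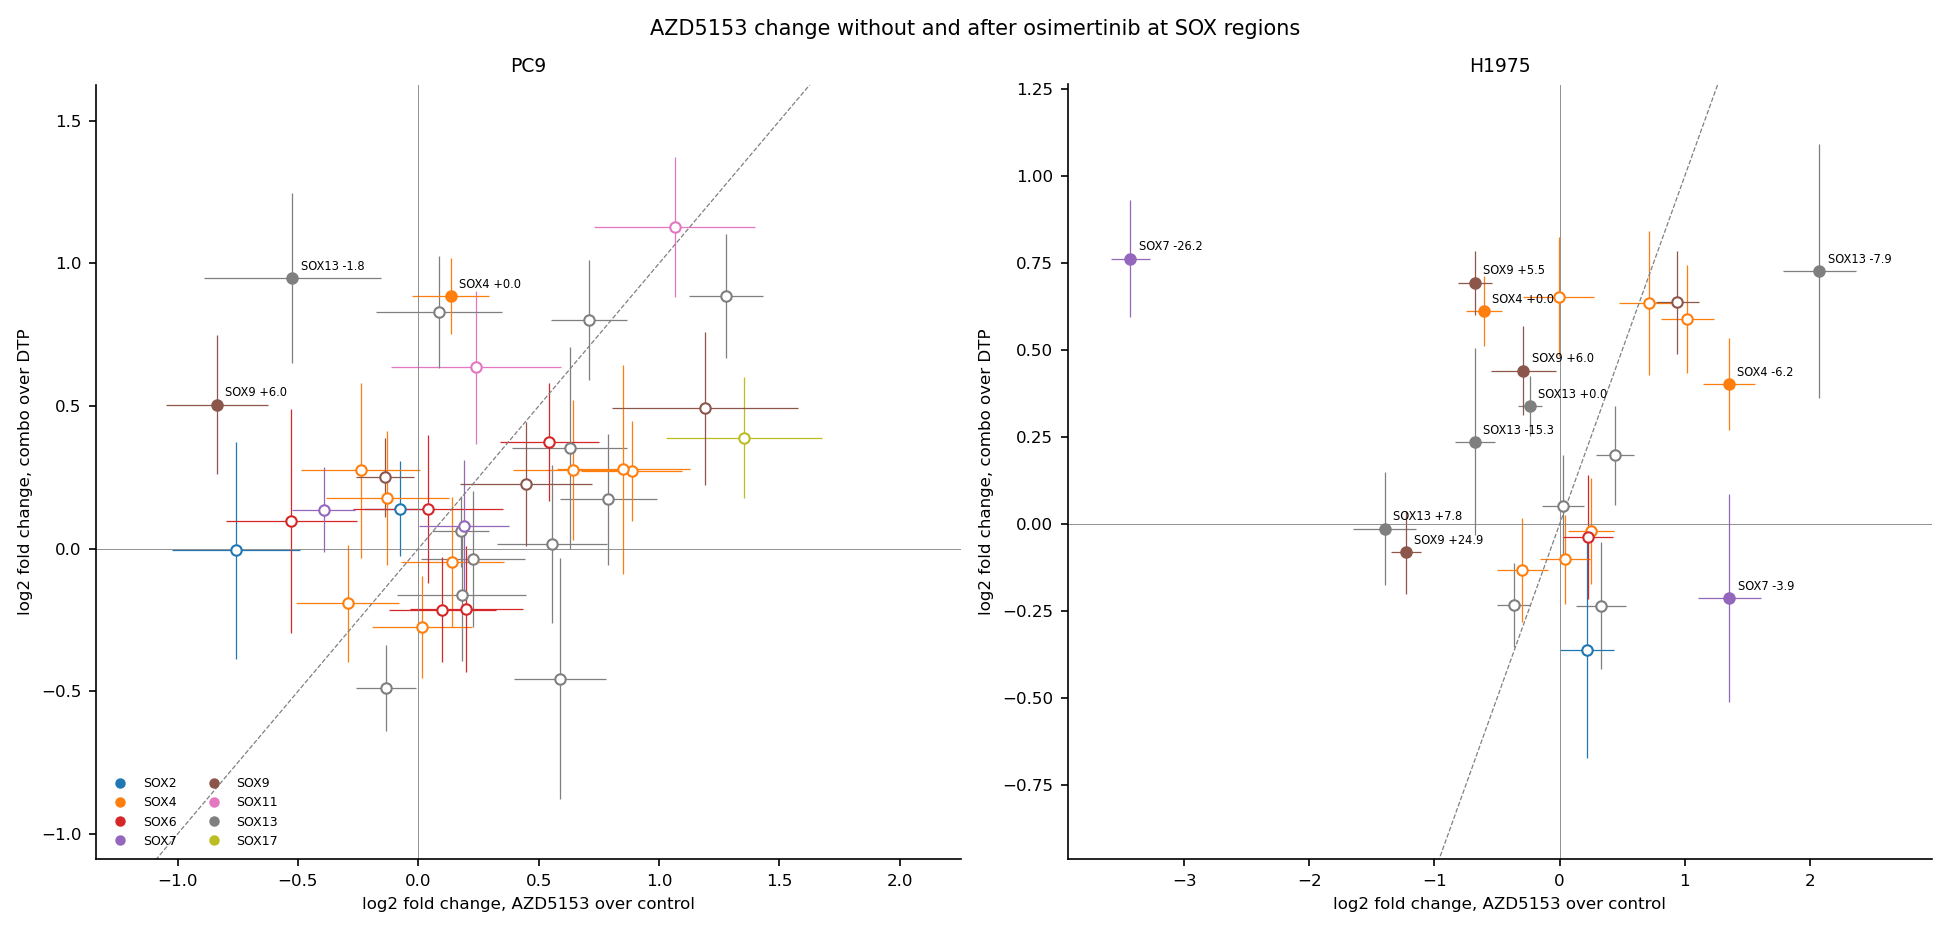
Log2 fold change of the combo over DTP (vertical axis) against that of AZD5153 over control (horizontal axis) at each SOX region of PC9 and H1975, coloured by gene, with SE bars, filled and labelled points where the interaction was called and a dashed line of equal change. The axes differ in scale, and the SOX7 region at -26.2 kb of H1975 stands apart with -3.43 on the horizontal and 0.76 on the vertical axis.

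Differences of the DTP change between lines were tested by limma on 82274 regions matched in the 4 tables, of which 26 were SOX regions. All 42 libraries entered as separate samples, and the test was not run with libraries summed. Its SE and p may therefore be too small where PC9 or H1975 enters. PC9 and H1975 differed at 10 of the 26 (28.1% of all regions), PC9 and HCC2935 at 7 (17.2%), H1975 and HCC2935 at 9 (29.2%), PC9 and HCC827 at 1 (3.5%), H1975 and HCC827 at 2 (9.76%) and HCC827 and HCC2935 at 0 (2.65%). The SOX2 start gave a lower DTP mean in all 4 lines, called in 3, and no pair of lines was called different there. The SOX7 region at -26.2 kb was called lower in 3 lines, and the SOX6 region at 0.681 kb, which in H1975 is in the full table only, called higher in 3. The PC9 calls of these SOX2, SOX6 and SOX7 regions and the HCC2935 call of SOX2 were lost with libraries summed. With regional medians removed, the SOX2 calls of PC9 and HCC2935 and the SOX6 call of HCC2935 were lost. H1975 rose more than PC9 and HCC2935 at the farthest SOX4 upstream region, with differences of -0.72 for PC9 minus H1975 (SE 0.27, limma adjusted p = 0.0397) and 1.38 for H1975 minus HCC2935 (SE 0.26, adjusted p = 1.93e-05). The SOX17 rise of HCC2935 exceeded that of PC9 with a PC9 minus HCC2935 difference of -2.26 (SE 0.78, limma adjusted p = 0.0348).

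Set side by side over the 14 groups, although each line's table was made separately, in CPM over the matched regions with TMM scaling, the SOX4 start was highest in the HCC2935 combo (58.6, range 53.3 to 65.4) and lowest in H1975 AZD5153 (12.3, range 11.5 to 13). The combo was the highest group of each line, although in HCC827 it overlapped DTP. The SOX2 start ran from 31.0 in HCC827 control (range 25.9 to 38.9) to 2.51 in the H1975 combo (range 1.14 to 4.04), and the 4 H1975 groups were the lowest. The control groups of HCC827 and HCC2935 (26.7, range 25.0 to 29.4) overlapped, as did the SOX2 levels of PC9 DTP (16.3, range 15.7 to 17) and HCC2935 DTP (17.2, range 16.2 to 18.5). At the SOX13 start the extremes were 42.8 in the H1975 combo (range 41.3 to 44.1) and 23.9 in the HCC827 combo (range 19.8 to 27.4), the narrowest span of these 3 starts.

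Genes whose start regions followed the SOX starts most closely over the 14 group means, among 13472 genes with a matched start region, were WNT16 for SOX2 (Pearson r 0.943), ZC3H11A for SOX4 (0.908), AKAP13 for SOX6 (0.939), YIPF6 for SOX9 (0.866) and BHLHE40 for SOX13 (0.919). These are descriptions over groups that share cell lines, and each is the best of many. Over the start regions of SOX genes the deposited lists held a peak in 77 of 84 library and region combinations in PC9, 59 of 60 in H1975, 39 of 45 in HCC827 and 42 of 45 in HCC2935. The SOX9 start of PC9 had a peak in 1 of 3 control libraries and in 3 of 3 libraries of every other group.

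Among other genes of the family, summed counts of SOX1 were called higher and those of SOX8, SOX15 and SOX18 lower in PC9 DTP, 4 of 7 measured, where 42.2% of all genes were called. In H1975 DTP SOX12 and SOX14 were higher and SOX8 and SOX18 lower, 4 of 6 against 69.1% of genes, in HCC2935 SOX10 was lower, 1 of 4 against 50.4%, and in HCC827 0 of 4 were called by edgeR, against 2.43%. The same shares stand behind the DTP counts of the next lists. The median over the list was -0.22 in PC9 and 0.02 in H1975, beside 0.00 and 0.01 over all genes. Of the HMG-box TCF/LEF factors and beta-catenin, DTP lowered TCF7, TCF7L1 and TCF7L2 in PC9 (3 of 5), lowered TCF7, TCF7L2 and CTNNB1 and raised TCF7L1 in H1975 (4 of 4), and lowered TCF7L2 and CTNNB1 and raised LEF1 in HCC2935 (3 of 5). Of the partner factors 5 of 7 were called in PC9 (PAX6 and POU3F2 higher; KLF4, POU2F1 and SALL4 lower), 5 of 5 in H1975 (NANOG and POU2F1 higher; KLF4, POU3F2 and SALL4 lower) and 3 of 6 in HCC2935. The non-coding neighbours SOX2-OT, SOX9-AS1, LINC00511, CASC15 and ROCR were all called lower with AZD5153 alone in H1975, 5 of 5 with a median of -0.73, where 39.6% of all genes were called lower. All 5 had a positive interaction there with a median of 1.23, where 35.6% of all genes had one, and the medians over all genes were 0.00 and -0.01. PC9 did not share this: with AZD5153 alone LINC00511 was called higher and CASC15 lower there, with a list median of 0.06, where 35.2% of all genes were called.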

How the data were processed

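ATAC-seq was deposited for 42 libraries of 4 lines, although the extraction text of the labels describes an H3K27ac ChIP. The authors deposited, per line, raw counts per region of 502 bases on hg38, as a full table and as a table annotated with gene symbols, and per library a peak list with the −log10 q-value of each peak. The submitters' processing notes name BWA 0.7.17, SAMtools 1.9, deepTools 3.4, MACS2 2.2.6, featureCounts 2.0.0 and ChIPseeker 1.29.1. A shift of reads for the transposase was not given in the sources used here.

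From these counts, each line was fitted with edgeR 4.0.16 (quasi-likelihood test, TMM scaling, filterByExpr, R 4.3.3), all groups in 1 fit and all regions of the full table tested, with Benjamini-Hochberg adjustment at 0.05. Gene sums add the counts of all regions of a symbol in the annotated table. DTP changes were compared between lines with limma 3.58.1 (voom with sample quality weights) on regions matched by at least 50% reciprocal overlap. CPM is the count over the library's total in the full table. The SE of an edgeR change is its absolute log2 fold change divided by the square root of the test's F. It may be too small where a group held few reads. Removing regional medians subtracts the median of each 10 Mb. The region fits of DTP against control by edgeR, DESeq2, limma voom and summed libraries were tried on simulated counts with known changes. So was the limma test of PC9 against the other lines. Gene sums, the replicate block, the interaction and the subtraction of regional medians were not tried in this way.

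The genes, lists and tests were chosen with earlier results of these data known. All 10 SOX genes are named. Single regions were picked per line and comparison as up to 3 in each direction with the largest change among called regions without overlap of the groups and above the median level, 1 in each direction for the interaction, and in HCC827 those with the smallest p. Other SOX regions in the text were chosen after their values were seen.

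Same-numbered libraries of HCC827 deviated together (r from 0.257 to 0.827 for every pair), so HCC827 values are also given with the replicate block. In the other lines these r reached from -0.0740 to 0.206, and the numbers were not taken as pairs. Alternatives were DESeq2 1.42.0, limma voom, other scalings and filters, the annotated regions alone, only the compared groups, each library left out, the libraries of a group summed with the dispersion of HCC2935, regional medians removed and a minimum log2 fold change of 1. Leaving out all HCC827 libraries numbered 3 was chosen after seeing the data.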

Additional observations from a re-analysis of the deposited data

Results flagged for a closer look

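At the SOX9 region 5.5 kb past the start, the DTP change of PC9 was below that of H1975 by a log2 difference of -0.88 and below that of HCC2935 by -1.40, by the limma test of the difference between lines. At the adjoining SOX9 region near 6 kb the same differences were -2.57 and -3.03, and PC9 went down while the other two went up. In PC9 the combo over DTP change of this adjoining region also differed from its AZD5153 over control change, with an interaction of 1.34 by edgeR. In H1975 the interaction was -1.57 at the SOX7 region at -3.9 kb and 4.19 at the SOX7 region at -26.2 kb.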

How the results depend on the processing

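Shares in parentheses after a comparison are those of all regions, or of all genes for gene counts, called under the same setting. The single regions picked by the rule kept their direction under every alternative run: of 45 such results, 7 lost their call under at least 1 alternative (29 values) and 1 gained it. With libraries summed, the SOX regions called were 10 (DTP, 19.4%), 4 (combo over DTP, 8.11%), 8 (AZD5153, 14.1%) and 1 (interaction, 4.81%) in PC9, 1 (combo, 5.97%) and 6 (interaction, 30.9%) in H1975 and 3 (combo, 5.36%) in HCC2935, and the genes called were 1 (combo, 11.7%), 2 (AZD5153, 16.1%) and 0 (interaction, 6.25%) in PC9 and 3 (DTP, 48.5%) and 0 (combo, 10.9%) in H1975. DESeq2 called 13 (DTP, 19.9%), 6 (AZD5153, 14.8%) and 1 (interaction, 6.1%) regions in PC9, 5 (combo, 8.77%) in H1975 and 3 (combo, 3.01%) in HCC2935, and 1 (combo, 17%), 2 (AZD5153, 21.6%) and 0 (interaction, 10.5%) genes in PC9. A mean of at least 50 counts, which only 6 (PC9), 13 (H1975) and 9 (HCC2935) SOX regions reach, left 4 (DTP, 36.5%), 2 (combo, 31.2%) and 1 (AZD5153, 33.1%) in PC9, 5 (combo, 33.8%) and 8 (AZD5153, 75.7%) in H1975 and 2 (DTP, 42.5%) and 3 (combo, 15.5%) in HCC2935. A log2 fold change of at least 1 left 6 (DTP, 17.6%), 1 (combo, 9.27%) and 4 (AZD5153, 13.3%) in PC9, 5 (DTP, 32.5%), 0 (combo, 6.83%), 7 (AZD5153, 39.6%) and 7 (interaction, 33.2%) in H1975 and 1 (combo, 4.76%) in HCC2935. The annotated regions alone gave 8 regions in the HCC2935 combo (16.2%). Library size scaling gave 6 (AZD5153, 79.7%) and 5 (interaction, 72.4%) genes in H1975, and regional medians removed gave 1 gene each in the combo (32.1%) and the interaction (22.1%) of PC9. Leaving out each library in turn gave 3 to 5 regions in the HCC2935 combo (3 without combo replicate 2; 3.82% to 5.17% of all regions over these settings), 8 to 13 for AZD5153 in PC9 (8 without control replicate 3; 19.7% to 20.7%), and 1 to 3 genes in both the combo (27% to 28.2% of genes) and the interaction (20.1% to 21.4%) of PC9. The PC9 combo count was 1 without DTP replicate 2 or combo replicate 2, and the PC9 interaction count was 1 without control replicate 2, AZD5153 replicate 2, combo replicate 1 or combo replicate 2. In HCC827 the replicate block gave 1 region (3.88%) and 2 genes (10.3%) in DTP, and 1 gene (9.95%) was called without the libraries numbered 3. The block moved no other count by over 1.5 times. Between lines, an overlap of 80% gave 6 for PC9 against H1975 (29.2%) and 5 for H1975 against HCC2935 (30.1%), and an edgeR joint fit gave 4 for H1975 against HCC827 (17.7%) and 1 for HCC827 against HCC2935 (8.34%). Peaks over 50% or more of the start region were found in 36 (PC9), 30 (H1975), 9 (HCC827) and 24 (HCC2935) combinations, and peaks with −log10 q of at least 5 in 25 of HCC827. Causes of these moves were not tested where the alternative itself does not give them. Scaling by library size alone shifted the median of all regions in H1975 by 0.22 (DTP), 0.18 (AZD5153), -0.11 (combo) and -0.32 (interaction).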
